A study of Citrus x limon with 9 samples.

Results

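SPL and CONSTANS-like proteins are 2 families of plant transcription factors with members that act in flowering. The genes of these families in lemon buds were found in the deposited FPKM table (fragments mapped to a gene, scaled by gene length and by the mapped reads of the library) by the words of their best protein match, which had to name a SQUAMOSA promoter-binding protein, a CONSTANS-like protein or a B-box zinc finger protein, and by 5 gene identifiers. Of 22353 genes in the table, 19 were found, 9 SPL genes and 10 CONSTANS-like or B-box genes. The words alone found 17, and Cs1g03630 and orange1.1t02597, whose best matches are unnamed hypothetical proteins, came in by identifier only. An FPKM of 1 or more in 3 or more of the 9 libraries was reached by 17 members (9 SPL and 8 CONSTANS-like) and by 17729 genes in all.

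The buds came from Femminello lemon, a cultivar of Citrus x limon, grafted on trifoliate orange rootstocks and kept in a greenhouse. Each library held the terminal bud and the 5 buds below it. Stage 1 was 1 week before a water deficit, stage 2 was 1 week after the deficit began, and stage 3 was 1 week after irrigation was resumed. The deficit lasted 2 weeks, and each stage had 3 biological replicates, each from its own group of 3 trees. Trees watered throughout were not among the 9 libraries, so date and water supply cannot be told apart, and the hour at which buds were taken is not given in the sources used here. Flower buds were visible at stage 3. In bulk buds, fewer cells of a type and less RNA per cell cannot be told apart.

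SPL proteins bind GTAC-containing DNA through a zinc-binding domain. In Arabidopsis many of their mRNAs are cleaved or held back by miR156, a microRNA that declines as the plant ages, and the SPL proteins that then accumulate activate miR172 and flowering genes such as SOC1, FRUITFULL and LEAFY. CONSTANS carries B-box zinc fingers and a CCT domain. In Arabidopsis it turns on the florigen gene FT in long days, under the control of the circadian clock, through GIGANTEA and the cyclic dof factors, and many CONSTANS-like relatives have separate roles in light signalling, stress responses and flowering.

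The 5 genes given by identifier were those that the study singled out on these same samples and followed by quantitative RT-PCR, so their presence among the changed genes is not independent evidence. The designed primers are shown because they mark which gene model each name stands for, including those 2 whose best match carries no name. They are written 5′ to 3′.
Cs8g20740 forward: ggaaggcatttggcgtgt
Cs8g20740 reverse: gatttgctgctcctctctctca
Cs1g03630 forward: gacaactttgcttcgaggat
Cs1g03630 reverse: atggtagtgcttagcgtgag
Cs5g12260 forward: aatctcggaaggtttgttga
Cs5g12260 reverse: ttatgcctcttgtggtagtc
orange1.1t02265 forward: cgtctcaacagagtaggcaaca
orange1.1t02265 reverse: cggcacttagagggaccaat
orange1.1t02597 forward: atgattggctttggctatgt
orange1.1t02597 reverse: tcccttttgtcctgctactt
The primers are 18 to 22 bases long, with a GC content of 40.0% to 55.6%.

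The relative depth of the 9 libraries was estimated from low values. The FPKM that 1 read is worth, set against stage 1 replicate 2, had medians of 0.961 to 1.16 across libraries. It was highest in stage 2 replicate 3, by this estimate the shallowest library. Ratios far from 1 were dropped before each median was taken, so a large difference in depth could not show. Between 19210 and 20099 genes were above 0, the lowest number again in stage 2 replicate 3. Replicates of a stage correlated at r of 0.974 to 0.982 across the genes tested, on the log2 scale. Among the 17 members, the median coefficient of variation between replicates was 4.17% at stage 1, 6.16% at stage 2 and 7.33% at stage 3. Summed FPKM of shoot meristem markers was 166.7 to 174.8 at stage 1, 219.9 to 233.1 at stage 2 and 243.5 to 252.0 at stage 3, most of it from the knotted-1-like gene Cs3g16460 (means of 77.1, 128.3 and 144.5 FPKM) and the SHOOT MERISTEMLESS-like gene (57.3, 70.5 and 70.5 FPKM). The other 3 of these 5 markers had lower means at stage 2 than at stage 1, and the median log2 fold change of the 5 was -0.48, with none called by limma (4 at an unadjusted p under 0.05). Summed FPKM of photosynthesis markers of green tissue was 2013.2 to 2066.8, 3172.5 to 3876.5 and 3892.8 to 4617.0 (7 of 8 genes passed the filter). Most of it came from Cs2g03780 (means of 811.8, 1750.2 and 2357.0 FPKM) and Cs6g18680 (874.9, 963.8 and 1020.3 FPKM). At stage 3 against stage 2 the median log2 fold change of the 7 was -0.27, with none called by limma (5 at an unadjusted p under 0.05). For floral organ identity genes the summed FPKM was 17.4 to 22.2, 12 to 14.8 and 22.6 to 24.0 (4 of 5 passed). Of 8 dehydrin and late embryogenesis abundant genes, a class that accumulates in drying tissue, 4 fell at stage 2 against stage 1, beside 4.66% of all genes tested. None was called higher (7 passed an unadjusted p under 0.05 in either direction), and the median was -1.05. Among the 4 that fell, Cs8g07520 passed the filter only through stage 1, where it was high, so its call carries no weight. The median includes it. The summed FPKM of the 8 genes, 2957.8 to 3195.7, 2969.3 to 3754.3 and 2266.8 to 3296.7, was mostly that of Cs9g04210 (means of 2089.6, 2942.1 and 2144.2 FPKM). The part of these shifts in the results on the members was not tested.

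Stages were compared by limma on log2(FPKM + 1), over all 17729 genes. A call required both a p under 0.05 after Benjamini-Hochberg adjustment and an absolute log2 fold change of 1 or more, and only called genes are said to have risen or fallen. Adding 1 makes these fold changes smaller than the plain ratios for genes of low FPKM. The 3 comparisons share libraries, so they are not independent of each other.

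At stage 2, during the water deficit, 2 members rose and 3 fell. The CONSTANS-like genes Cs8g20740 and Cs2g12490 rose steeply, and the SPL genes orange1.1t02265 and Cs1g03630 and the CONSTANS-like gene Cs6g19280 fell. The 2 of 17 members that rose compare with 3.18% of all genes tested, and the 3 that fell with 4.66%. Without the fold threshold, 9 members passed the adjusted p, 3 higher and 6 lower, against 38.4% of all genes. In 10 members the stage 2 libraries all lay on one side of the stage 1 libraries, against 50.0% of all genes. At stage 3 against stage 2, the first week with water again, 1 member rose (background 4.92%) and 2 fell (background 2.54%). The adjusted p alone was passed by 11 members (background 36.0%) and 13 had libraries that did not overlap (background 46.4%). At stage 3 against stage 1, 1 member rose (background 2.69%) and 2 fell (background 2.24%). Here 13 members passed the adjusted p alone, 3 higher and 10 lower (background 27.3%), and 15 had libraries that did not overlap (background 43.7%). In all, 7 members (3 SPL and 4 CONSTANS-like) were called in at least 1 comparison and 10 in none, beside 2312 of all genes tested (13%). Of the 7, 4 are among the genes given by identifier. The 12 tested members not given by identifier held 1 that rose and 1 that fell at stage 2 against stage 1, 1 that fell at stage 3 against stage 2, and 1 that rose and 1 that fell at stage 3 against stage 1.

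**Figure D1:**
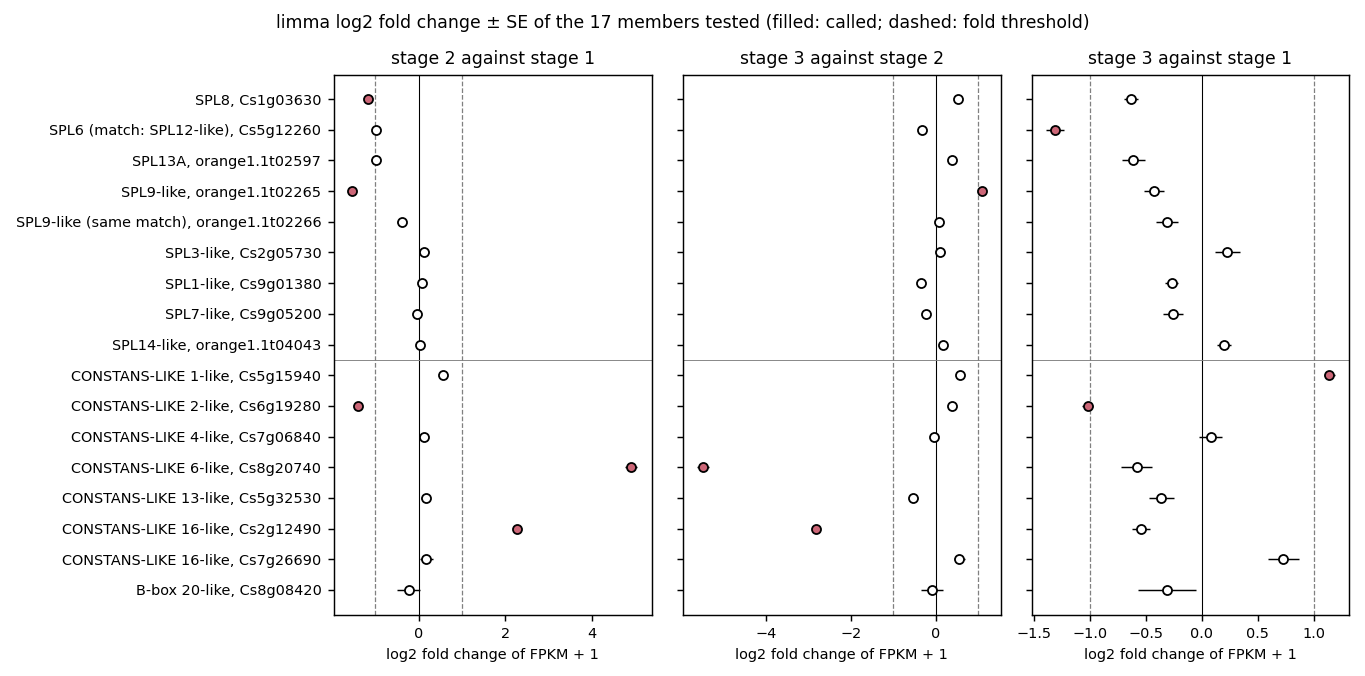
Log2 fold change of FPKM + 1 (x axis, ± SE from limma) for the 17 members tested (y axis), with SPL genes above the grey line and CONSTANS-like genes below it, in the 3 comparisons. Filled points are called and dashed lines mark a log2 fold change of 1 in either direction. The x axes differ between the panels. Cs8g20740 stands at 4.91 and -5.49 in the comparisons with stage 2, while 9 of the other points lie past a dashed line.

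The largest change of any member was that of Cs8g20740, matched to CONSTANS-LIKE 6-like. It had 1.81, 2.75 and 1.79 FPKM at stage 1, 89.7, 95.5 and 89.9 FPKM at stage 2, and 1.05, 1.19 and 0.96 FPKM at stage 3. The gene was close to the filter of 1 FPKM outside the deficit, and the 3 stage 2 libraries lay far above the other 6. Its stage 2 mean of 91.7 ± 3.31 FPKM was 43.3 times that of stage 1 (2.12 ± 0.549, SD, n = 3 each), a log2 fold change of 4.91 (SE 0.14, limma adjusted p = 8.8e-10). At stage 3 it averaged 1.07 ± 0.116 FPKM, against 86 times that level at stage 2, a log2 fold change of -5.49 (SE 0.14, limma adjusted p = 7.6e-10). The stage 3 libraries also lay below all stage 1 libraries, by -0.58 on the log2 scale (limma adjusted p = 0.01), which is under the fold threshold.

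Cs2g12490, matched to CONSTANS-LIKE 16-like, had the same order of stages from a higher base. A CONSTANS-LIKE 16 gene of petunia raises chlorophyll when overexpressed. The lemon gene had 25.4, 25.1 and 24.2 FPKM at stage 1, 117.7, 127.6 and 129.8 FPKM at stage 2, and 17.1, 18.3 and 15.1 FPKM at stage 3. No stage overlapped another, with stage 2 the highest and stage 3 the lowest. Its level at stage 2 was 5.03 times that at stage 1 (log2 fold change 2.28, SE 0.08, limma adjusted p = 3.4e-09). Stage 3 stood at 0.134 of stage 2 (log2 fold change -2.83, SE 0.08, limma adjusted p = 1.1e-09). The difference of stage 3 from stage 1, -0.54, passed the adjusted p (limma, 0.00036) and not the fold threshold. A second gene matched to CONSTANS-LIKE 16-like, Cs7g26690, was not called, and its stage means were 6.19 ± 0.246, 7.20 ± 1.28 and 11 ± 1.28 FPKM. Its stage 3 libraries lay above all others, unlike those of Cs2g12490. The log2 fold changes, 0.56 over stage 2 and 0.73 over stage 1 (limma adjusted p = 0.011 and 0.0028), were under the fold threshold.

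Cs6g19280, matched to CONSTANS-LIKE 2-like, was the most abundant member before the deficit. Its FPKM was 249.9, 235.2 and 247.2 at stage 1, 92.1, 89.6 and 92.7 at stage 2, and 125.8, 115.7 and 118.6 at stage 3. The stages did not overlap, with stage 1 the highest and stage 2 the lowest. It fell at stage 2 to 0.375 of its stage 1 level (log2 fold change -1.41, SE 0.05, limma adjusted p = 4.2e-09). At stage 3 against stage 2 the value was 0.39 (limma adjusted p = 0.00011), which is under the fold threshold. At stage 3 it was still at 0.492 of its stage 1 level (log2 fold change -1.02, SE 0.05, limma adjusted p = 5.8e-08), a call that was lost without stage 3 replicate 2 (-0.99).

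Cs5g15940, matched to CONSTANS-LIKE 1-like, ran the other way. It had 112.4, 106.4 and 112.4 FPKM at stage 1, 158.7, 157.9 and 172.5 FPKM at stage 2, and 243.3, 243.6 and 245.3 FPKM at stage 3. Every library of a later stage was above every library of the stage before. Each step was about the same on the log2 scale, 0.56 at stage 2 over stage 1 and 0.58 at stage 3 over stage 2 (limma adjusted p = 5.9e-06 and 4e-06), and neither reached the fold threshold. The gene rose at stage 3 to 2.21 times its stage 1 level (log2 fold change 1.14, SE 0.05, limma adjusted p = 2.2e-08).

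orange1.1t02265, matched to SPL9-like, was the SPL gene with the largest change. Arabidopsis SPL9 is a miR156 target that promotes the adult phase and activates miR172. The lemon gene had 46.2, 50.0 and 53.2 FPKM at stage 1, 18.0, 15.1 and 16.6 FPKM at stage 2, and 33.5, 37.3 and 39.4 FPKM at stage 3. The stages did not overlap, with stage 2 the lowest and stage 1 the highest. It fell at stage 2 to 0.333 of its stage 1 level (log2 fold change -1.53, SE 0.09, limma adjusted p = 2.2e-07). It then rose at stage 3 to 2.22 times its stage 2 level (log2 fold change 1.1, SE 0.09, limma adjusted p = 3e-06), and was the single member called higher in that comparison. Stage 3 against stage 1 gave -0.43 (limma adjusted p = 0.0045), under the fold threshold. A separate gene model, orange1.1t02266, has the same protein as its best match. It had 24.0, 19.8 and 20.9 FPKM at stage 1, 15.7, 16.3 and 16.5 FPKM at stage 2, and 18.0, 17.8 and 15.6 FPKM at stage 3, and was called in no comparison. Whether reads were divided between these models by the counting is not known, so both levels are uncertain.

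Cs1g03630, named SPL8 in the study, was the most abundant SPL gene at stage 1. Arabidopsis SPL8 acts in pollen sac development and is not a miR156 target. The lemon gene had 83.4, 86.7 and 80.1 FPKM at stage 1, 36.0, 35.9 and 38.5 FPKM at stage 2, and 55.2, 51.7 and 53.6 FPKM at stage 3. Stage 2 was the lowest and stage 3 in between, with no overlap. It fell at stage 2 to 0.441 of its stage 1 level (log2 fold change -1.16, SE 0.06, limma adjusted p = 7.9e-08). The values of 0.53 at stage 3 over stage 2 and -0.63 at stage 3 over stage 1 passed the adjusted p (limma, 4.3e-05 and 1.4e-05) and not the fold threshold.

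Cs5g12260, named SPL6 in the study while its best match is SPL12-like, was low in both later stages. Its FPKM was 76.7, 71.9 and 77.8 at stage 1, 35.9, 35.1 and 42.0 at stage 2, and 28.2, 30.8 and 30.2 at stage 3. Each later stage lay wholly below the one before. It fell at stage 3 to 0.394 of its stage 1 level (log2 fold change -1.31, SE 0.08, limma adjusted p = 2.7e-07). Stage 2 stood at 0.499 of stage 1, a log2 fold change of -0.99 (SE 0.08, limma adjusted p = 2.2e-06) that just missed the fold threshold. It passed that threshold under 3 other settings (median scaling -1.06, quantile normalization -1.02, a pseudocount of 0.1 -1.0), and without stage 1 replicate 2 (-1.02) or stage 2 replicate 3 (-1.07).

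orange1.1t02597, described as SPL13A by the study, missed the same threshold. It had 53.9, 62.0 and 50.0 FPKM at stage 1, 30.8, 23.8 and 27.5 FPKM at stage 2, and 36.4, 36.7 and 34.1 FPKM at stage 3. All 3 stages were separate, with stage 2 the lowest. Stage 2 stood at 0.496 of stage 1 (log2 fold change -0.99, SE 0.10, limma adjusted p = 1.8e-05). Median scaling (-1.06), quantile normalization (-1.04), a pseudocount of 0.1 (-1.01) and the removal of stage 1 replicate 1 (-1.0), stage 1 replicate 3 (-1.06) or stage 2 replicate 1 (-1.07) each took it past the threshold. Stage 3 against stage 2 gave 0.38 and stage 3 against stage 1 gave -0.61 (limma adjusted p = 0.014 and 0.00095).

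**Figure D2:**
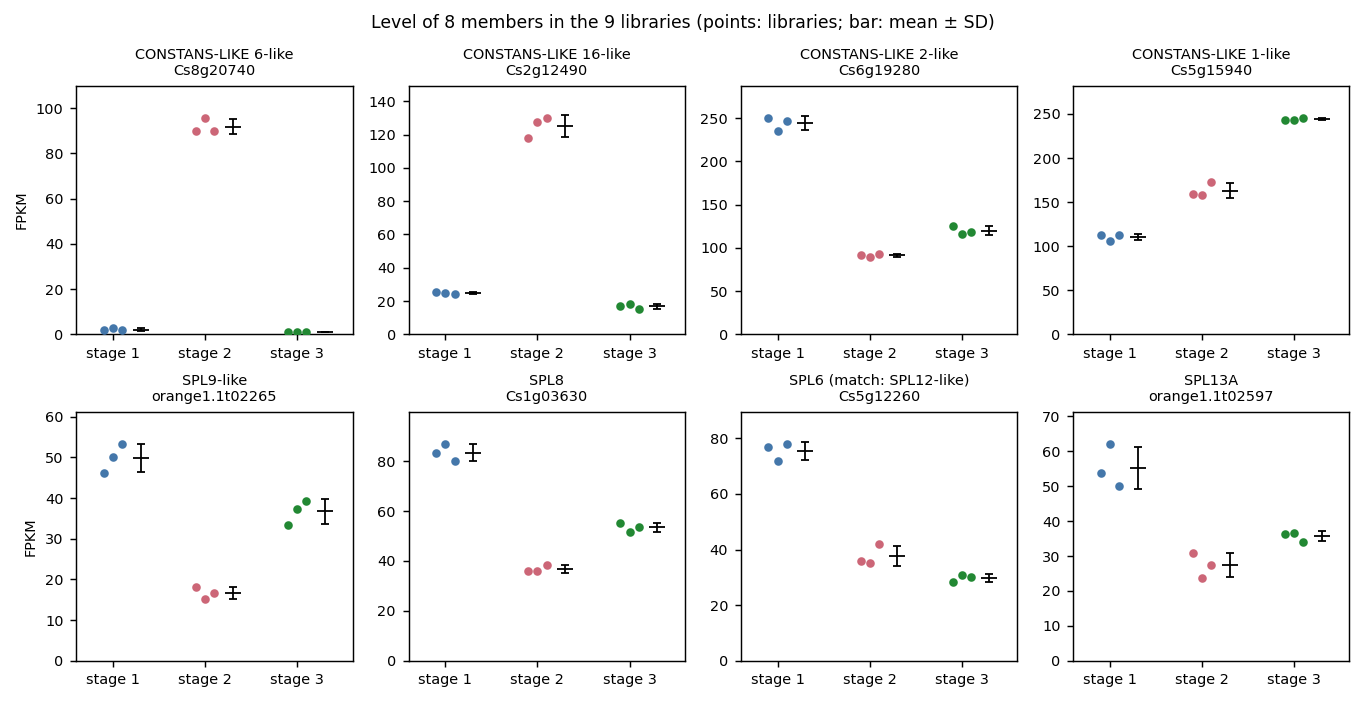
FPKM (y axis, from 0, with its own scale in each panel) of 8 members in the 3 libraries of each stage (x axis). Points are libraries and the bars beside them are the mean ± SD of 3 replicates. Cs8g20740 and Cs2g12490 are high at stage 2 alone, Cs5g15940 is higher at each later stage, and Cs6g19280, orange1.1t02265, Cs1g03630 and orange1.1t02597 are lowest at stage 2, whereas Cs5g12260 is lowest at stage 3.

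Across the SPL genes, none of 9 was called higher at stage 2 against stage 1 by limma (0 also at an unadjusted p under 0.05 with a positive fold change), and 2 fell. Of all genes tested, 3.18% were called higher and 4.66% lower. All 5 that passed the adjusted p alone, orange1.1t02265, Cs1g03630, Cs5g12260, orange1.1t02597 and orange1.1t02266, had lower levels at stage 2, and in each of them the stage 2 libraries lay below all stage 1 libraries. Among all genes tested, 38.4% passed the adjusted p and 50.0% had libraries that did not overlap, in either direction. The other 4 SPL genes kept overlapping libraries between these stages. The median log2 fold change of the 9 was -0.39, beside 0.05 for all genes tested. That value rests on the 4 genes given by identifier, which the study picked on these samples, and the median of the other 5 SPL genes was 0.04. At stage 3 against stage 2, 1 SPL gene rose (background 4.92%). None was called lower (background 2.54%, 3 SPL genes lower at an unadjusted p under 0.05), with a median of 0.11 beside -0.06 for all genes. At stage 3 against stage 1, none was called higher (background 2.69%, 1 SPL gene at an unadjusted p under 0.05) and 1 fell (background 2.24%). The median was -0.31 beside 0.01 for all genes (-0.26 for the 5 not given by identifier).

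The SPL genes without a call included Cs2g05730, matched to SPL3-like, whose Arabidopsis counterpart is a small miR156-targeted activator of LEAFY, FRUITFULL and APETALA1. It averaged 30.7 ± 1.45, 33.9 ± 5.58 and 36.3 ± 3.03 FPKM at stages 1, 2 and 3, and stage 2 replicate 3 was its lowest library at 27.7. Without that library stage 2 against stage 1 was 0.26 and not called. Cs9g01380, matched to SPL1-like, averaged 55.7 ± 1.36, 58.7 ± 2.86 and 46.2 ± 1.93 FPKM in the same order, with every stage 3 library below the other 6 (-0.34 against stage 2, limma adjusted p = 0.0014). orange1.1t04043, matched to SPL14-like, averaged 53.1 ± 0.316, 54.6 ± 3.36 and 61.1 ± 1.85 FPKM. Cs9g05200, matched to SPL7-like, the regulator of copper homeostasis in Arabidopsis, averaged 20.9 ± 1.14, 20.4 ± 1.01 and 17.3 ± 1.27 FPKM.

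Taken as a sum, the 9 SPL genes held 445.4, 452.3 and 439.8 FPKM in the stage 1 libraries, 298.9, 299.5 and 308.1 FPKM at stage 2 and 332.6, 332.6 and 336.1 FPKM at stage 3. The lower sum at stage 2 came from the 4 genes given by identifier, whose sum averaged 263.9 ± 5.75, 118.4 ± 7.63 and 155.7 ± 2.08 FPKM at stages 1, 2 and 3. The other 5 SPL genes together averaged 181.9 ± 3.23, 183.8 ± 5.73 and 178.1 ± 1.70 FPKM, with libraries that overlapped between stages 1 and 2. The leading SPL gene at stage 1 was Cs1g03630, with 18.7% of the sum, whereas Cs9g01380 led at stage 2 with 19.4% and orange1.1t04043 at stage 3 with 18.3%. No single gene dominated the family at any stage.

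The CONSTANS-like genes moved in both directions. At stage 2 against stage 1, 2 of 8 rose (background 3.18%) and 1 fell (background 4.66%). The median was 0.17 beside 0.05 for all genes tested. Among the 7 not given by identifier, 1 rose and 1 fell, with a median of 0.16. At stage 3 against stage 2, 2 fell (background 2.54%). None was called higher by limma (background 4.92%, 3 of the 8 higher at an unadjusted p under 0.05). The median was -0.06, the same as for all genes (-0.04 for those 7, of which 1 fell). At stage 3 against stage 1, 1 rose (background 2.69%) and 1 fell (background 2.24%). The median was -0.34 beside 0.01 for all genes (-0.31 for those 7). The summed FPKM of all 8 was 567.2, 557.7 and 554.2 at stage 1, 670.4, 673.0 and 657.7 at stage 2 and 565.7, 568.5 and 568.2 at stage 3, highest in the deficit and overlapping between stages 1 and 3. The make-up of the sum differed more than its size. Cs6g19280 gave 43.6% of it at stage 1, and Cs5g15940 gave 43.0% at stage 3 and was also the leading gene at stage 2, with 24.4%.

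**Figure D3:**
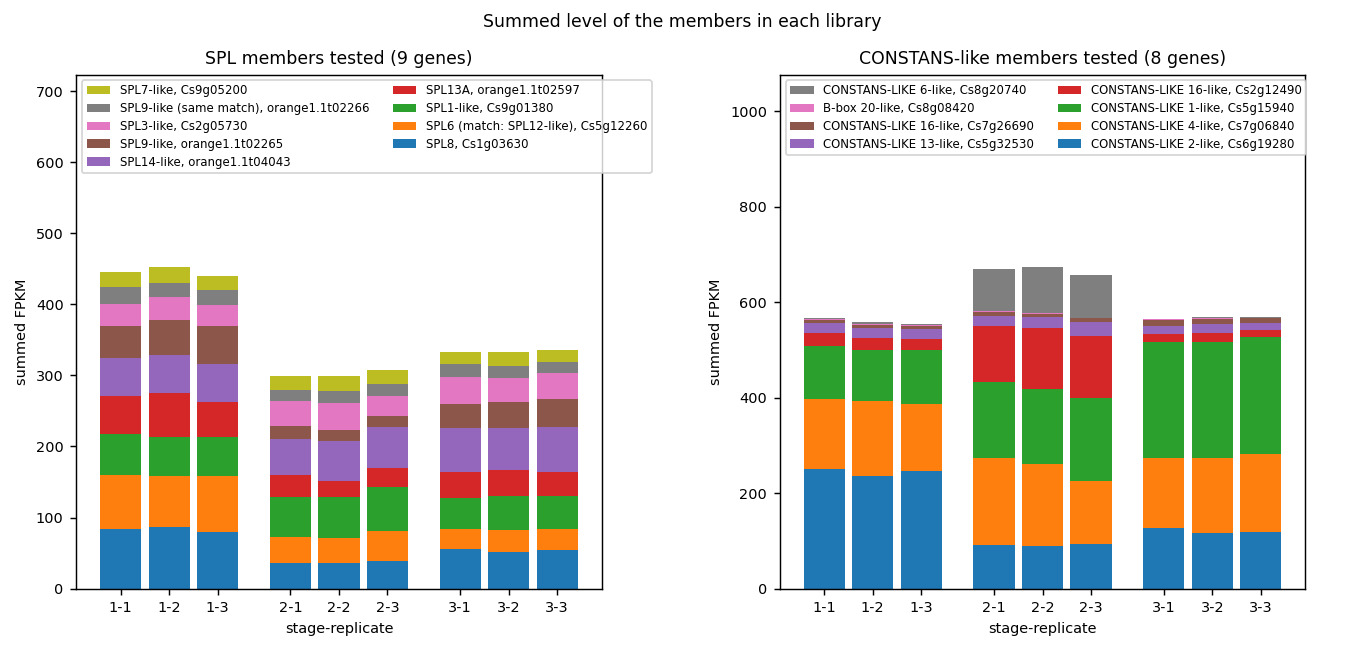
Summed FPKM (y axis) of the 9 SPL genes (left) and 8 CONSTANS-like genes (right) in each library (x axis, stage and replicate), with 1 colour per gene. SPL sums are highest at stage 1 (439.8 to 452.3), through the 4 genes given by identifier, and the CONSTANS-like sums are highest at stage 2, where Cs8g20740 (grey) and Cs2g12490 (red) are broad.

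Of the remaining CONSTANS-like genes, Cs7g06840, matched to CONSTANS-LIKE 4-like, was abundant and close to level. Arabidopsis COL4 is a repressor of flowering. The lemon gene averaged 147.9 ± 8.95, 162.0 ± 25.1 and 156.0 ± 7.87 FPKM at stages 1, 2 and 3, with overlapping libraries. Its stage 2 replicate 3 held 133.6 FPKM, against 181.0 and 171.4 in the other replicates, and without it stage 2 against stage 1 was 0.25 (limma adjusted p = 0.011), still under the fold threshold. Cs5g32530, matched to CONSTANS-LIKE 13-like, averaged 22.0 ± 1.39, 24.9 ± 3.84 and 16.9 ± 1.55 FPKM, with stage 3 below the other stages (-0.53 against stage 2, limma adjusted p = 0.0039). Its stage 2 replicate 3 stood high at 29.4 FPKM, and without it that value was -0.41. Cs8g08420, matched to the B-box zinc finger protein 20-like, lay between 0.77 and 2.59 FPKM in all libraries. The 2 members under the filter, Cs7g26080 and Cs5g03300, did not exceed 0.90 and 0.23 FPKM in any library.

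The 17 members fell into 4 orders of stage means. A lower mean at stage 2 followed by a higher one at stage 3 was found in 5 members (4 SPL and 1 CONSTANS-like), beside 30.5% of all genes. A higher mean at stage 2 followed by a lower one was found in 5 (1 SPL and 4 CONSTANS-like), beside 42.8%. Means lower at each step were found in 3, beside 14.1%, and means higher at each step in 4, beside 12.7%. This ordering takes no account of replicate spread, and the difference between the families in it was not tested.

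Genes of the circadian clock and the photoperiod pathway, which act before CONSTANS in Arabidopsis, were measured by a word list. Of 9 tested, 2 rose and 3 fell at stage 2 against stage 1, 1 rose and 2 fell at stage 3 against stage 2, and 2 rose at stage 3 against stage 1. The shares of all genes called higher and lower were 3.18% and 4.66%, 4.92% and 2.54%, and 2.69% and 2.24% in the same order. Cs3g21790, a GIGANTEA-like gene, had 5.64, 4.97 and 4.21 FPKM at stage 1, 87.3, 91.3 and 100.8 FPKM at stage 2, and 25.9, 25.0 and 26.5 FPKM at stage 3. Like Cs8g20740 and Cs2g12490 it was highest in all 3 stage 2 libraries, but it was at stage 3 still above stage 1 (log2 fold change 2.18, limma adjusted p = 3.1e-08). Cs6g03960, matched to the clock repressor APRR7, averaged 9.05 ± 0.0404, 46.7 ± 0.914 and 44.3 ± 3.74 FPKM at stages 1, 2 and 3.

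The 3 cyclic dof factor genes, whose Arabidopsis relatives repress CONSTANS transcription, all fell at stage 2. Cs6g21400 averaged 44.3 ± 3.94 FPKM at stage 2, against 108.6 ± 0.394 FPKM at stage 1, with log2 fold changes for the 3 genes of -1.28, -1.09 (Cs5g10770) and -1.38 (Cs7g03670). The morning gene LHY (orange1.1t00580) averaged 1026 ± 14.7, 597.0 ± 27.8 and 874.8 ± 16.4 FPKM at stages 1, 2 and 3, with no call. Its log2 fold changes were -0.78 (stage 2 over stage 1), 0.55 (stage 3 over stage 2) and -0.23 (stage 3 over stage 1). They passed the adjusted p (limma, 1.2e-07, 1.9e-06 and 0.0022) and not the fold threshold. These genes cycle over the day in other plants, CONSTANS-like genes among them, and the part of the sampling hour in the values of the members was not tested.

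**Figure D4:**
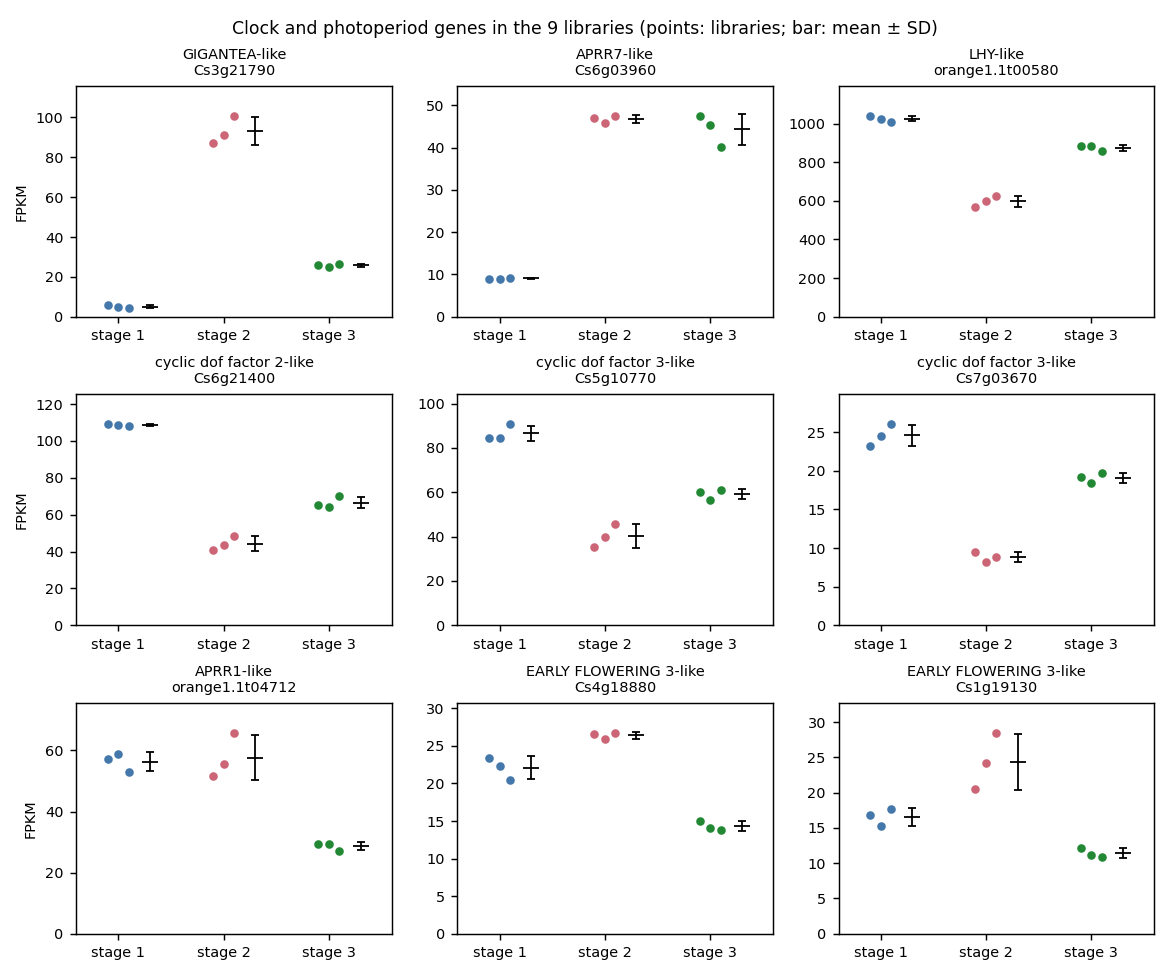
FPKM (y axis, from 0, with its own scale in each panel) of 9 clock and photoperiod genes in the 3 libraries of each stage (x axis). Points are libraries and the bars beside them are the mean ± SD of 3 replicates. The GIGANTEA-like gene is highest at stage 2 (87.3 to 100.8 FPKM), where the 3 cyclic dof factor genes are lowest.

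Genes that work with or after the members were listed in the same way. NF-Y subunits of the B and C types form DNA-binding complexes with CONSTANS in Arabidopsis. The 6 NF-Y genes listed were of the A, B and C types. Of these, 2 fell at stage 2 against stage 1 (background 4.66%) and 1 at stage 3 against stage 1 (background 2.24%). None was called by limma at stage 3 against stage 2 (5 at an unadjusted p under 0.05). Cs9g12370, matched to NF-YA1 and so of the A type, averaged 196.5 ± 6.38, 81.5 ± 5.35 and 45.8 ± 1.81 FPKM at stages 1, 2 and 3. The other gene that was called lower at stage 2, Cs7g10640, passed the filter only through stage 1, where it was high, so its call carries no weight. The remaining 4 NF-Y genes had higher means at stage 2 than at stage 1, with limma adjusted p-values of 0.00053 to 0.015 and log2 fold changes of 0.33 to 0.51, under the fold threshold, and the median of all 6 was 0.35. None of 5 genes for phytochromes, cryptochromes and SPA proteins, which set CONSTANS protein levels in Arabidopsis, was called by limma in any comparison (3, 4 and 3 at an unadjusted p under 0.05 for stage 2 against stage 1, stage 3 against stage 2 and stage 3 against stage 1). Of 7 genes matched by name to miR172 targets or flowering targets of SPL proteins, 5 passed the filter. None of the 5 was called by limma either (1, 1 and 2 at an unadjusted p under 0.05, in the same order). Cs6g19710 and Cs6g04110 among them stayed near the filter, with stage means of 1.86 to 2.12 and 1.14 to 2.61 FPKM. One SOC1-like gene in the list, orange1.1t00278, averaged 85.3 ± 2.49, 80.7 ± 1.84 and 76.0 ± 5.58 FPKM at stages 1, 2 and 3. Another SOC1-like gene, Cs9g16575, averaged 45.5 ± 0.287, 46.4 ± 5.88 and 50.4 ± 3.7 FPKM in the same order of stages. miR156 itself was not measured in these libraries of gene models.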

How the data were processed

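RNA from buds at 3 stages was sequenced, with 3 libraries a stage. The authors cleaned the reads (FASTX-Toolkit), aligned them by BWA against sweet orange and deposited the levels as FPKM. For tool versions, counting program and strand use, the sources used here give nothing. FPKM divides by length and library total, so depth in reads is unknown, and relative depth was taken from the smallest steps between low values.

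The study used NOISeq. Here limma 3.58.1 (R 4.3.3, trend option, 1 mean per stage, no covariate) was fitted to log2(FPKM + 1) for genes reaching 1 FPKM in 3 or more libraries, with Benjamini-Hochberg adjustment over all 17729 genes tested. It was tested on simulated data. Values are means ± SD of 3 replicates. Members called in at least 1 comparison and the 5 given by identifier were named with every library, other members by stage means or range. The members and the word lists were chosen with earlier results of these data known. Alternatives were 2 scalings, 2 filters, a pseudocount of 0.1, no trend, 2 stages alone, a replicate block, no fold threshold, each library left out, members found by words alone, and, added after seeing the data, members not given by identifier and a KEGG-based list. Primers are the study's designs.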

Additional observations from a re-analysis of the deposited data

How the results depend on the processing

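The 11 calls of members were refitted 187 times in all under other scalings, filters, pseudocount and models and with single libraries left out. Of these refits 186 kept the call and its direction, none changed direction, and 1 lost the call (Cs6g19280 at stage 3 against stage 1, -0.99 without stage 3 replicate 2). Many refits leave the fold change as it was by design, so they bear only on the adjusted p. These are the filters, no trend, 2 stages alone, the replicate block and the removal of a library of the stage not compared. The count of members lower at stage 2 against stage 1, 3 in the main analysis, became 5 under median scaling, quantile normalization or a pseudocount of 0.1, with orange1.1t02597 and Cs5g12260 added in each, and was 3 to 4 with 1 library left out. With no fold threshold it became 6, and the other counts became 6 higher and 5 lower at stage 3 against stage 2 and 3 higher and 10 lower at stage 3 against stage 1. With 1 library left out the last comparison gave 1 to 2 lower. Adding the genes with the KEGG entry K12135, an alternative chosen after seeing the data, gave 4 higher at stage 2 against stage 1, 7 lower at stage 3 against stage 2 and 5 lower at stage 3 against stage 1. Members found by words alone gave 2 lower in place of 3 at stage 2 against stage 1 and the same counts otherwise. Leaving out all members given by identifier, also chosen after seeing the data, gave 1 higher and 1 lower at stage 2 against stage 1, 0 higher and 1 lower at stage 3 against stage 2, and 1 higher and 1 lower at stage 3 against stage 1. Whether the same groups of trees were sampled at each stage is not stated in the sources used here. Deviations of same-numbered libraries correlated at -0.102 to 0.032 over 9 pairs, which with 3 libraries a stage cannot decide it. With the replicate number as a block the counts were 2 higher and 3 lower, 1 higher and 2 lower, and 1 higher and 2 lower in the 3 comparisons, as without it. Low levels such as those of Cs8g08420 (SE 0.26) limit what can be seen at this depth.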

Other observations

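The KEGG entry K12135 (zinc finger protein CONSTANS) is carried by 26 genes of the table, 10 of them members. The 16 others have best matches that are unnamed or uncharacterized, or that name a salt tolerance-like protein or another zinc finger protein, and 15 passed the filter. At stage 2 against stage 1, 2 of the 15 rose (3.18% of all genes tested) and 1 fell (4.66% of all genes). At stage 3 against stage 2, 5 fell (2.54% of all genes), and at stage 3 against stage 1, 3 fell (2.24% of all genes). These genes were added after the data were seen and are named here for their size of change. Cs7g02880 averaged 9.54 ± 2.46, 46.0 ± 1.85 and 8.23 ± 1.87 FPKM at stages 1, 2 and 3. Its log2 fold changes were 2.18 at stage 2 over stage 1 and -2.37 at stage 3 over stage 2 (limma adjusted p = 2.2e-06 and 1.1e-06). Cs2g19010 averaged 93.7 ± 3.03, 181.3 ± 8.30 and 35.0 ± 1.46 FPKM at stages 1, 2 and 3, and was lower at stage 3 than at stage 2 by a log2 fold change of -2.34 (limma adjusted p = 5.4e-10). Cs2g21940 averaged 148.9 ± 1.72, 58.9 ± 13.3 and 66.1 ± 2.86 FPKM at the same stages and fell at stage 2 (log2 fold change -1.35, limma adjusted p = 4.8e-06).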
